A study of Danio rerio with 6 samples.

Results

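Heme scavenging and iron recycling genes were followed in whole kidney marrow of zebrafish that lack a working il7 gene. Free heme and hemoglobin from broken red cells are caught in plasma by hemopexin and haptoglobin, and heme taken up by cells is opened by heme oxygenase into biliverdin, carbon monoxide and iron. Biliverdin reductases turn the pigment into bilirubin, ferroportin lets the iron out of the cell, and transferrin carries it in plasma back to cells that make hemoglobin. In mammals the plasma carriers are made mainly in the liver, and macrophages do most of the recycling of old red cells. The kidney marrow is the main blood-forming tissue of adult fish and also holds kidney tubules.

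The 8 genes were the hemopexin gene hpxb, the haptoglobin gene hp, the heme oxygenase genes hmox1a and hmox1b, the biliverdin reductase genes blvra and blvrb, the ferroportin gene slc40a1 and the transferrin gene tfa. The gene hpxb (ENSDARG00000051912) was selected on its normalized counts, being higher in every mutant library, so its difference between the groups is a description and carries no test. The others were listed for their function and matched by symbol. Of the 8 symbols, 7 were found among the 32267 features of the table. The feature ENSDARG00000027529 carries the symbol HMOX1, which RefSeq gives as a synonym of hmox1a, and is called hmox1a here. No feature was matched to hmox1b, which is not analysed here.

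There were 3 libraries of il7 mutant fish, whose allele is an internal deletion of exons 2 to 4 of the cytokine gene il7, and 3 libraries of control fish labelled wt. All came from the TLEK background strain, from total RNA of unsorted whole kidney marrow, and the labels give neither age nor sex nor the number of fish per library. The study asked what il7, which encodes interleukin 7, does in the development of lymphocytes. Values are normalized counts, that is reads per gene divided by a size factor for each library, so they are compared between libraries and not between genes of unequal length.

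Depth, as reads summed over all genes, ran from 34496353 to 39265305 in mutant libraries and from 38901066 to 46120889 in control libraries. As a check of the labels, il7 had 16.5, 17.8 and 4.00 normalized counts in il7 mutants 1, 2 and 3, against 89.8, 61.6 and 57.7 in controls 1, 2 and 3. The 2 libraries il7 mutant 2 and control 1 stand apart by oocyte transcripts. The egg coat gene zp3b had 31205 normalized counts in il7 mutant 2 and between 54.9 and 64.8 in the other mutants, against 55927 in control 1 and between 52.1 and 68.7 in the other controls. For the listed genes that were fitted, the log2 change is therefore also given without these 2 libraries. In unsorted tissue, fewer cells of a type and less RNA per cell cannot be told apart.

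Of the 7 matched genes, 6 had a mean normalized count of at least 10 and were fitted, and hp fell below that filter. All 6 had a positive change in mutants, as had 45.9% of all fitted genes, and their median log2 change was 1.18 against −0.04 over all 20782 fitted genes. Since the genes were chosen with results known, these figures describe them and support nothing. In limma's test, with Benjamini-Hochberg adjustment over all genes, 0 of the 5 fitted members other than hpxb passed an adjusted p of 0.05, against 0 of 20782 genes over the whole table (0%). At an unadjusted p under 0.05 the whole table held 723 genes (3.48%), of which none was among these 5. Every mutant library lay above every control library for hpxb alone of the 6, and for 3.51% of all fitted genes.

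**Figure D1:**
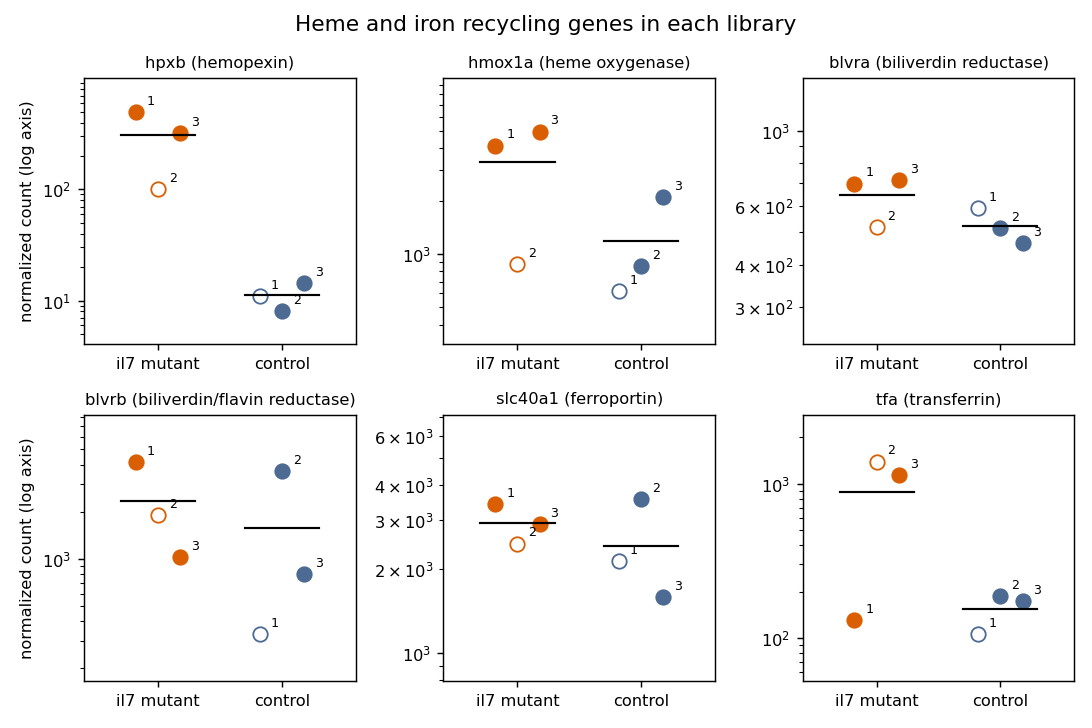
Normalized counts of the 6 fitted genes on log axes, with il7 mutant libraries at the left and control libraries at the right of each panel. Points are libraries marked with their replicate number, open points are the 2 libraries rich in oocyte transcripts (il7 mutant 2 and control 1), and lines are group means of 3. The groups are apart only for hpxb, and the tfa mean of 888 in mutants rests on il7 mutants 2 and 3.

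Hemopexin binds free heme in plasma and delivers it for uptake and breakdown. The hpxb gene had 499, 100.1 and 323 normalized counts in il7 mutants 1, 2 and 3, against 11.0, 8.08 and 14.4 in controls 1, 2 and 3. These values came from 423, 101 and 323 reads in the mutants and 14, 8 and 13 reads in the controls. The mutant libraries all stood above the controls, and the lowest mutant was 6.94 times the highest control.

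The mean of hpxb was 307 ± 200 in mutants and 11.2 ± 3.17 in controls (SD, n = 3), a ratio of 27.5. Its log2 change was 4.42 (SE 0.67), ranked 17 among the 20782 fitted genes when counted from the most positive change. With il7 mutant 2 and control 1 left out the log2 change of hpxb was 5.09. The spread among the mutants was wide, with the lowest value in the oocyte-rich library il7 mutant 2. The gene hace1 lies next to hpxb, without overlap, in the RefSeq annotation of the assembly GRCz12tu. The counts of hace1 were 357, 435 and 399 in mutants, against 382, 323 and 197 in controls, and overlapped between the groups. Its log2 change was 0.45 (SE 0.32). No other neighbour of hpxb was compared. The 5 fitted genes with the profile nearest to hpxb over the 6 libraries were si:dkey-40h17.5, ENSDARG00000100939, zgc:103625, SARM1 and si:dkey-25o1.7. Likeness was the root mean square difference of log2 values centred on each gene's mean, and lay between 0.74 and 0.88 log2 units for these. None of the 5 is a member of the lists described here.

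The other hemopexin gene, hpxa, had a different pattern. It had 10.6, 159.6 and 355 normalized counts in il7 mutants 1, 2 and 3, against 11.0, 3.03 and 15.5 in controls 1, 2 and 3. So il7 mutant 1, the library with the most hpxb, held hpxa at the level of the controls. The ratio of hpxb to hpxa reads, uncorrected for length and so useful only between libraries, was 47 in il7 mutant 1, 0.627 in il7 mutant 2 and 0.910 in il7 mutant 3, against 1.00, 2.67 and 0.929 in controls 1, 2 and 3. The log2 change of hpxa was 3.23 (SE 1.34), with an adjusted p of 1.00. No source used here says how the authors' counting treated strand or reads shared between similar copies. Reads that both hemopexins, or a gene and an antisense partner, could share are therefore uncertain.

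Transferrin, the plasma iron carrier, had the library pattern of hpxa, not that of hpxb. The tfa gene had 131, 1393 and 1139 normalized counts in il7 mutants 1, 2 and 3, against 106, 187 and 173 in controls 1, 2 and 3. Thus il7 mutants 2 and 3 were high and il7 mutant 1 lay within the range of the controls. The mean was 888 ± 668 in mutants and 155 ± 43.5 in controls (SD, n = 3). The log2 change was 1.97 (SE 0.91, 95% interval −0.22 to 4.16), with an adjusted p of 1.00 in limma. It was 3.06 without il7 mutant 1, 1.1 without il7 mutant 2 and control 1, and 0.83 with array quality weights. Of the 5 genes nearest to tfa in profile, SERPINC1 (antithrombin) and itih3b.2 (an inter-alpha-trypsin inhibitor heavy chain) encode plasma proteins, at 0.59 log2 units each, and the others were zgc:123103, ENSDARG00000104633 and ENSDARG00000037619.

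Some liver transcripts and the median liver level had the library pattern of tfa and hpxa, while the summed liver level did not. That median, over log2 values of the 35 fitted liver markers centred on each gene's mean, was −0.172, 0.857 and 1.503 in mutants. In controls 1, 2 and 3 the median was −1.052, −0.735 and −0.128. Thus il7 mutants 2 and 3 lay above all controls, and il7 mutant 1 lay within their range. In the liver list 32 of the 35 had a positive change, as had 45.9% of all fitted genes, with a median log2 change of 1.28. In limma 0 passed the adjusted threshold, and 8 higher and 1 lower had an unadjusted p under 0.05, where 3.48% of all fitted genes stood. Without both oocyte-rich libraries 31 were positive and the median was 0.81, against 9780 of 20270 genes positive in all. Of 35 fitted liver markers, 15 (42.9%) stood above all controls in il7 mutants 2 and 3 but not in il7 mutant 1, a pattern that 1.79% of all fitted genes had. These included the fibrinogen genes fga and FGG, the plasma inhibitor gene ambp and the fetuin gene fetub. The ambp counts, for example, were 4.72, 176 and 102 in mutants, against 4.73, 3.03 and 12.2 in controls, a log2 change of 2.81 (SE 1.36). The apolipoprotein gene apoa1b had 189, 1492 and 1475 in mutants, against 85.9, 44.5 and 189.7 in controls. The highest of the 6 values lay in il7 mutant 1, as for hpxb, for 3 of the 35 liver markers, which were apoa2, apoc1 and RBP4, and for 13.1% of all fitted genes. Another 4 liver markers, serpina1, serpina1l, SERPINC1 and ahsg2, stood above all controls in every mutant, where 3.51% of all fitted genes did. The lowest mutant in each was il7 mutant 1. For all 4 this rests on low counts. In that order they had 13.0, 15.3, 8.25 and 3.54 in il7 mutant 1, against 7.77, 11.1, 7.88 and 2.22 in the highest control. In the other direction SERPIND1, which encodes heparin cofactor II, stood below all controls in every mutant, where 4.44% of all fitted genes did. It had 248, 233 and 274 normalized counts in mutants, against 351, 742 and 453 in controls.

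Summed over all 39 matched liver markers, none of which was at 0 in every library, the level was 70606, 25184 and 62234 in il7 mutants 1, 2 and 3, against 18934, 29671 and 61258 in controls 1, 2 and 3. That sum is carried by a few abundant genes such as apoa2, apoc1 and RBP4, and it overlapped between the groups. Per 1000 normalized counts of that sum, hpxb stood at 7.06, 3.98 and 5.19 in mutants, against 0.582, 0.272 and 0.235 in controls. Because hpxb was selected on that difference, these values are a description and support nothing. On the same scale tfa stood at 1.85, 55.3 and 18.3 in mutants, against 5.57, 6.30 and 2.83 in controls, and overlapped. The part of liver RNA in the hpxb, tfa and hpxa values was not tested.

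**Figure D2:**
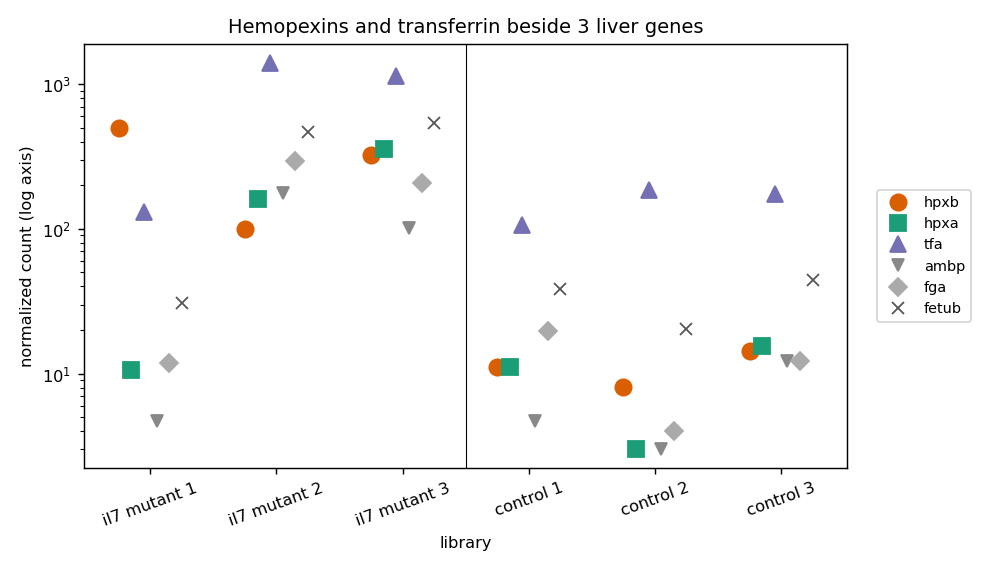
Normalized counts on a log axis of hpxb, hpxa and tfa and of the liver genes ambp, fga and fetub in each library, il7 mutants left of the line and controls right of it. In il7 mutant 1 hpxb stands at 499 while hpxa, ambp and fga lie at 10.6, 4.72 and 11.8, close to their control values. The plotted liver genes are all among the 15 of 35 fitted liver markers above all controls in il7 mutants 2 and 3 only. The liver markers apoa2, apoc1 and RBP4, highest in il7 mutant 1, are not plotted.

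Haptoglobin, which binds free hemoglobin, was barely detected. The hp gene (ENSDARG00000051890) had 1, 1 and 0 reads in il7 mutants 1, 2 and 3, against 0, 0 and 1 reads in controls 1, 2 and 3. All 6 libraries were thus at or under 3 reads, set here as the floor, and no fold is given. That floor is near the 95% upper limit for a count of 0 and covers counting error only. Among other scavengers, the ferroxidase gene CP (ceruloplasmin) had a log2 change of 0.42 (SE 0.33). The 2 features named LRP1, the receptor that takes up hemopexin with heme in mammals, had 0.02 (SE 0.34) and 0.15 (SE 0.23). The scavenger receptor genes stab1 and stab2 had 0.27 (SE 0.31) and −0.09 (SE 0.38).

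Heme oxygenase carries out the step that opens the heme ring. The hmox1a gene had 4108, 877 and 4930 normalized counts in il7 mutants 1, 2 and 3, against 619, 856 and 2097 in controls 1, 2 and 3. The groups overlapped, since il7 mutant 2 lay below control 3. The mean was 3305 ± 2143 in mutants and 1191 ± 794 in controls (SD, n = 3). The log2 change was 1.33 (SE 0.77, 95% interval −0.51 to 3.17), with an adjusted p of 1.00 in limma. It was 1.75 (SE 0.45, adjusted p = 0.718) without il7 mutant 2 and control 1, 2.12 without il7 mutant 2 alone, and 0.87 without il7 mutant 3.

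Across the 6 libraries hmox1a split in a way that crosses the groups. It was high in il7 mutant 1, il7 mutant 3 and control 3 and low in il7 mutant 2, control 1 and control 2. The same 3 libraries were the highest for 12.5% of all fitted genes and for 9 of the 23 other fitted genes (39.1%) of the list of NRF2 and BACH1 factors and targets. NRF2 switches on hmox1 and other antioxidant genes in vertebrates, and BACH1 holds them off until it binds heme. These genes, found after the values were seen, included GCLC, GCLM, GSR, NQO1, prdx1, TXNRD3, SQSTM1 and abcc2. NQO1, a quinone reductase, had 1754, 330 and 2862 normalized counts in mutants, against 504, 453 and 2484 in controls. A peroxiredoxin feature named prdx1 had 37657, 3805 and 24992 in mutants, against 3500, 4534 and 35083 in controls. The other feature of that symbol, PRDX1, did not have this pattern, with 54480, 23180 and 44743 in mutants, against 20511, 48353 and 44850 in controls.

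Genes of meiosis separated the libraries in the same way, with DMC1, a meiotic recombinase, at 13.0, 0.992 and 76.9 normalized counts in mutants, against 0.788, 1.01 and 183 in controls. Of the 10 genes of a meiotic list chosen after the values were seen, 7 were highest in those 3 libraries. So were 7 of 16 fitted muscle markers (43.8%). The hmox1a level did not rank the 3 libraries as DMC1 did, since control 3 had the most DMC1 and the least hmox1a of them. Among these 3 libraries hmox1a stood at 4108 and 4930 in mutants, against 2097 in the control. Among the other 3 it stood at 877 in the mutant, against 619 and 856 in the controls. The libraries were split by hmox1a itself, so these values are a description and support nothing. With so few libraries this was not tested, and the part of RNA from meiotic cells, oocytes or muscle in these values was not tested.

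**Figure D3:**
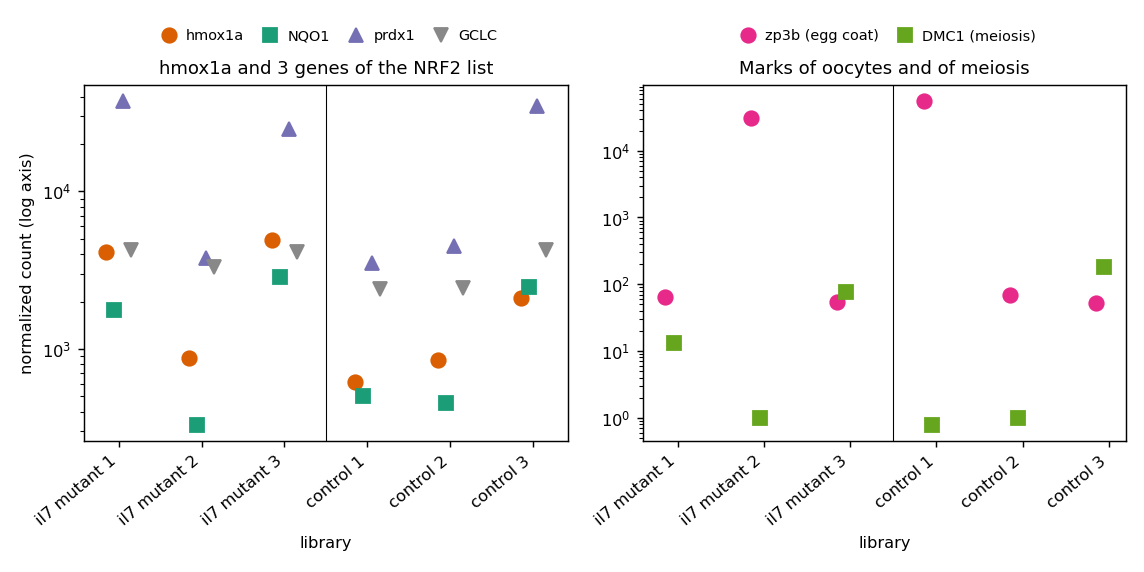
Normalized counts on log axes in each library, il7 mutants left of the line and controls right of it: hmox1a with NQO1, prdx1 and GCLC of the NRF2 list (left panel), and the egg coat gene zp3b with the meiosis gene DMC1 (right panel). The values of hmox1a, NQO1 and prdx1 are highest in il7 mutant 1, il7 mutant 3 and control 3, where DMC1 lies between 13.0 and 183. The feature PRDX1, which lacks this pattern, is not plotted.

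In the whole NRF2 and BACH1 list, 24 of 27 matched features were fitted, 19 had a positive change, the median log2 change was 0.17, and 0 passed the adjusted threshold in limma. Of all fitted genes 45.9% had a positive change. Without control 1, an oocyte-rich library, 10 of the 24 had a positive change and the median was −0.05. Over all genes 10350 of 20532 then had a positive change. Without both oocyte-rich libraries 17 of the 24 had a positive change and the median was 0.08, against 9780 of 20270 genes in all. With all libraries kept, that list also held 0 genes at an unadjusted p under 0.05 in limma, where 3.48% of all fitted genes stood. After hmox1a the smallest p values belonged to GCLC, a subunit of the enzyme that starts glutathione synthesis, at 0.41 (SE 0.28), and slc7a11, a cystine carrier, at −0.80 (SE 0.72). The repressor genes bach1a and BACH1 had 0.21 (SE 0.28) and 0.19 (SE 0.44), and the NRF2 gene NFE2L2 had −0.02 (SE 0.35). The constitutive heme oxygenase gene hmox2b had 0.21 (SE 0.47). Of the 5 genes nearest to hmox1a in profile, CA10, znf1070 and GRTP1 have a symbol that is no clone name, at 0.24, 0.27 and 0.31 log2 units, and si:ch211-218c6.9 was the nearest at 0.16.

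The biliverdin reductases differed in how much they varied. BLVRA, which reduces biliverdin to bilirubin, was the steadiest of the fitted members, with 697, 517 and 715 normalized counts in il7 mutants 1, 2 and 3, against 590, 514 and 465 in controls 1, 2 and 3. The groups overlapped, and its highest library was 1.54 times its lowest. The log2 change of blvra was 0.29 (SE 0.24, 95% interval −0.30 to 0.87), with an adjusted p of 1.00 in limma, and it was 0.44 without il7 mutant 2 and 0.53 without the oocyte-rich libraries. The profile nearest to blvra, at 0.06 log2 units each, was that of si:ch211-142c4.1, dnm2b and RFNG, followed by UBXN6.

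The second reductase gene, blvrb, also known as flavin reductase and abundant in mammalian red cells, had 4134, 1913 and 1026 normalized counts in il7 mutants 1, 2 and 3, against 333, 3617 and 800 in controls 1, 2 and 3. The groups overlapped widely, with 1 library of each among the 2 highest, and the highest library was 12.4 times the lowest. The log2 change was 1.02 (SE 0.93, 95% interval −1.21 to 3.26), with an adjusted p of 1.00. Leaving out single libraries gave 0.24 (no control 1), 1.96 (no control 2) and 0.50 (no il7 mutant 1), and leaving out both oocyte-rich libraries gave 0.28. Array quality weights gave 0.57, so the size rests on single libraries. The pooled SD within groups was 1.42 log2 units, above that of 88.7% of fitted genes, where that of blvra was 0.22 and above that of 11.4%.

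Red cell transcripts differed between the libraries as well. The sum of the 20 matched erythroid markers was 649680, 251163 and 547476 in il7 mutants 1, 2 and 3, against 99756, 378846 and 445827 in controls 1, 2 and 3, and of these 20 the genes hbae1.1 and klf1 were at 0 throughout. Per 1000 normalized counts of that sum, blvrb stood at 6.36, 7.62 and 1.87 in mutants, against 3.34, 9.55 and 1.79 in controls, and the groups overlapped. The erythroid sum was lowest in control 1, where blvrb was lowest too, and il7 mutant 3 had a high sum and little blvrb. Of 18 fitted erythroid markers 17 had a positive change, where 45.9% of all fitted genes did, and the median log2 change was 0.51. It was 0.02 without control 1, with 11 positive, and 0.44 without both oocyte-rich libraries, with 16 positive. The part of red cell RNA in the blvrb values was not tested. The genes nearest to blvrb in profile included plekhf1 and mstna, a myostatin gene, at 0.35 and 0.41 log2 units. TFR2, a transferrin receptor that senses iron in liver and red cell precursors, was likewise low in controls 1 and 3, with 969, 351 and 668 normalized counts in mutants, against 87.4, 994 and 139 in controls.

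Ferroportin is the iron exporter of vertebrate cells and is strong in recycling macrophages. The slc40a1 gene had 3421, 2465 and 2888 normalized counts in il7 mutants 1, 2 and 3, against 2127, 3551 and 1590 in controls 1, 2 and 3. The groups overlapped, with the highest value in control 2. The log2 change was 0.34 (SE 0.33, 95% interval −0.46 to 1.1), with an adjusted p of 1.00 in limma. Leaving out single libraries gave 0.08 (no control 3), 0.66 (no control 2) and 0.22 (no il7 mutant 1). Leaving out both oocyte-rich libraries gave 0.40 (SE 0.41). The sum of the 31 matched macrophage markers was 170797, 160391 and 121420 in il7 mutants 1, 2 and 3, against 122813, 175875 and 133634 in controls 1, 2 and 3, with 4 features named MFAP4 at 0 throughout. A large part of that sum is LGMN alone, with 86881, 47455 and 58886 in mutants, against 40786, 83192 and 62702 in controls. The list also holds apoc1, which is among the liver markers too. Per 1000 of the macrophage sum slc40a1 stood at 20.03, 15.4 and 23.8 in mutants, against 17.3, 20.2 and 11.9 in controls. On the same macrophage scale hmox1a stood at 24.1, 5.46 and 40.6 in mutants, against 5.04, 4.87 and 15.7 in controls, and still overlapped. Per 1000 normalized counts of the erythroid sum hmox1a stood at 6.32, 3.49 and 9.01 in mutants, against 6.21, 2.26 and 4.70 in controls, with il7 mutant 2 below controls 1 and 3. Among the 5 genes nearest to slc40a1 in profile were ADORA2B, mcat and GPR18, at 0.10 to 0.11 log2 units.

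Hepcidin, the hormone that removes ferroportin from the membrane, is encoded by hamp. It had 7.07, 4.96 and 11.0 normalized counts in mutants, against 9.45, 13.1 and 6.66 in controls, and fell below the filter. The ferritin gene fth1a, which stores iron, had 148256, 80574 and 108727 in mutants, against 59570, 131791 and 92045 in controls, a log2 change of 0.28 (SE 0.39). The receptor genes that take up iron-loaded transferrin, tfr1a and tfr1b, had 0.24 (SE 0.58) and 0.31 (SE 0.35), and TFR2 had 1.41 (SE 0.93). The ferritin-like gene fthl30 had 2.07 (SE 1.45), with 2 controls at 0.

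The wider lists were the plasma scavengers, the heme transport and breakdown genes and the iron storage and transport genes. Without the members they gave 48 fitted features, of which 0 passed the adjusted threshold in limma. At an unadjusted p under 0.05 in limma they held 3, where 3.48% of all fitted genes stood. Of the 48, 30 had a positive change, as had 45.9% of all fitted genes, and the median log2 change was 0.15. In every mutant 3 stood above and 1 below all controls, where 3.51% and 4.44% of all fitted genes did. The 3 above were SLC46A1, a POR feature and IREB2, and the 1 below was a FLVCR2 feature. The POR feature and IREB2 were apart only narrowly, with 4372 and 4020 in the lowest mutant, against 4303 and 4011 in the highest control. Separately, 9 of 10 matched scavenger features, 18 of 19 heme features and 28 of 31 iron features were fitted, members included, with median log2 changes of 0.27, 0.19 and 0.15. Without control 1, an oocyte-rich library, these medians were 0.26, 0.23 and −0.01, and without both oocyte-rich libraries they were 0.20, 0.19 and 0.20.

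SLC46A1, a folate carrier that also moves heme in mammals, had 686, 566 and 817 normalized counts in mutants, against 213, 331 and 358 in controls. Its log2 change was 1.21 (SE 0.30), with an unadjusted p of 0.00596 and an adjusted p of 1.00 in limma. A feature named FLVCR2, of a family that carries heme or choline, had 4.72, 16.9 and 8.99 in mutants, against 52.8, 73.8 and 24.4 in controls. Its log2 change was −2.22 (SE 0.68, adjusted p = 1.00), and the other FLVCR2 feature had −0.11 (SE 0.25). POR, the reductase that feeds electrons to heme oxygenase and to P450 enzymes, had 2 features at 0.57 (SE 0.27) and 0.53 (SE 0.43). Values of genes with more than 1 feature per symbol are uncertain, since similar copies can share reads.

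**Figure D4:**
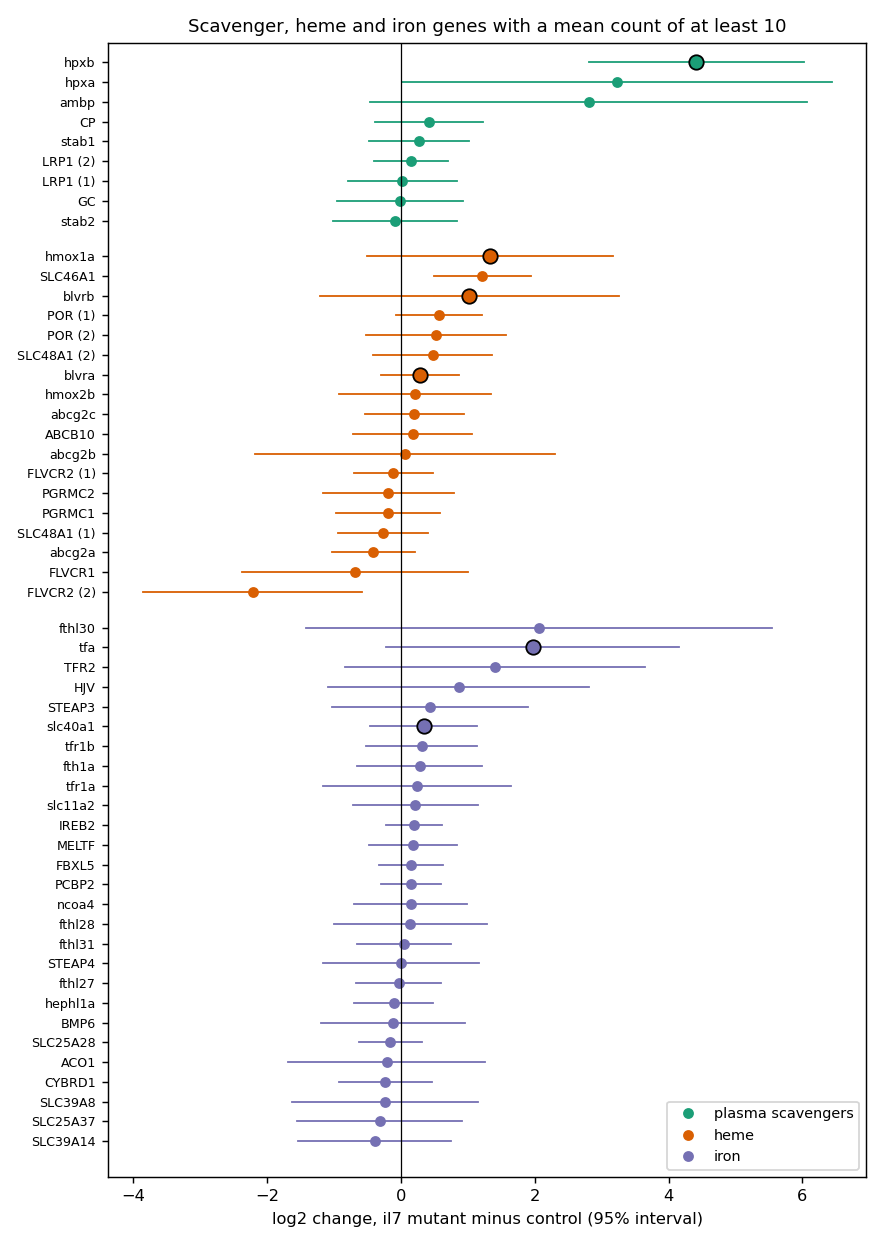
Log2 change of il7 mutant minus control, with 95% intervals from limma, for the fitted scavenger, heme and iron genes; numbers in brackets mark features that share a symbol, and large outlined points are the listed members. The gene hpxb was chosen for being higher in every mutant library, so its interval is a description and no test. The intervals of the other 5 outlined members include 0.

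Hemopexin and haptoglobin are acute phase proteins in mammals, so that list was read beside them. Of 28 matched acute phase features 20 were fitted, and 11 had a positive change, as had 45.9% of all fitted genes. The median log2 change was 0.02, and 0 passed in limma. The smallest p values belonged to the liver genes serpina1, serpina1l and FGG, at 3.95 (SE 1.15), 3.09 (SE 1.02) and 3.49 (SE 1.23), each with an adjusted p of 1.00. The transcription factor genes CEBPB and CEBPD, which drive acute phase genes in the mammalian liver, were named after their values were seen. These 2 of the 20 stood below all controls in every mutant, where 4.44% of all fitted genes did. Another 2, serpina1 and serpina1l, stood above all controls, where 3.51% did, on low counts of 13.0 and 15.3 in il7 mutant 1. The log2 change was −0.89 (SE 0.33) for CEBPB and −1.90 (SE 0.67) for CEBPD, and neither passed the adjusted threshold in limma. CEBPD had 699, 2674 and 4001 normalized counts in mutants, against 5782, 5835 and 11639 in controls.

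In the authors' deposited table the unshrunken log2 fold change was 1.47 for hmox1a, 0.30 for blvra, 0.57 for blvrb, 0.27 for slc40a1 and 2.52 for tfa. The authors' deposited table gave tfa an adjusted p of 0.166 and the other 4 an adjusted p of 1.00. For hpxa the authors' deposited table held 4.15 and an adjusted p of 0.118. The share of tested genes at an adjusted p under 0.05 in the authors' deposited table was 0.209% for higher and 0.312% for lower genes.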

How the data were processed

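Per the labels' protocols, total RNA of whole kidney marrow was extracted, treated with DNase and made into stranded libraries after ribosomal RNA removal. Per the submitters' processing notes, the authors used the build GRCz10, DESeq2 1.14.1, featureCounts 1.5.2, STAR 2.5.3a and bcl2fastq 2.17.1.14, whose roles and settings the notes do not give. The deposited signal is a normalized count per gene. Within each column all values were whole multiples of the lowest one above 0 (tolerance 1e-06 reads), which, taken as 1 read, gave the reads and depths quoted. The authors' deposited table gives log2 fold changes, p-values and a Wald statistic, a score not used here.

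Symbols were found for 26433 of 32267 features, with RefSeq synonyms for list genes lacking a match. For the 20782 genes with a mean of at least 10, log2(normalized count + 1) was compared between groups, taken from the sample titles, by limma 3.58.1 (R 4.3.3, trended variance, Benjamini-Hochberg threshold 0.05). This scale understates changes of low genes. Nothing says that the libraries came from separate fish, so the spread behind each p may not be that between fish. It includes unequal tissue content, such as oocyte transcripts. An exact permutation test of 3 against 3 cannot give a p below 0.1. Named genes were the members, the 3 smallest p in each of the scavenger, heme, iron, NRF2 and acute phase lists, fixed paralogs and regulators, and the 5 nearest profiles per member; others are said to be named after their values were seen or stand for a counted pattern, and some that the rule names are not reported here. The members, lists and alternatives were chosen with earlier results of these data known. The steps were tested on simulated data.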

Additional observations from a re-analysis of the deposited data

How the results depend on the processing

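The number of genes called stayed at 0 in all 17 other fits run at an adjusted p under 0.05, and was 723 at an unadjusted p under 0.05. Leaving out 1 library at a time, the smallest adjusted p over all genes lay between 0.137 and 0.683. The 6 fitted members kept a positive sign in each of these 17 fits, but the sign of hpxb was fixed by its selection. By design the log2 changes stayed the same under other filters, without the variance trend, and with the replicate block or oocyte term. Those fits could not change a sign. Leaving out 1 library at a time, the log2 change ranged from 3.93 to 5.08 for hpxb, 0.87 to 2.12 for hmox1a, 0.20 to 0.44 for blvra, 0.24 to 1.96 for blvrb, 0.08 to 0.66 for slc40a1 and 1.35 to 3.06 for tfa. Of the 5 tested members none passed in any fit. The smallest adjusted p was 0.514 in limma, for hmox1a once a term marking the oocyte-rich libraries entered the model. Only leaving out libraries and array quality weights moved a member by over 1.5 times. With the replicate number as a block, 0 genes were called and the smallest adjusted p was 0.816; the labels do not say that a number pairs fish, and deviations of same-numbered libraries correlated at −0.51, −0.40 and 0.51. The 2 planned count-model tests were not run, so every test rests on the normalized counts, to which trimmed mean scaling was also applied. Reads quoted take the lowest value above 0 in a column as 1 read. Depth limits hp, which had 0 or 1 reads in each library.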

Other observations

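The muscle marker sum was 232562, 24886 and 30084 normalized counts in il7 mutants 1, 2 and 3, against 11263, 6883 and 123811 in controls 1, 2 and 3, and so was highest in il7 mutant 1, where hpxb was highest. Control 3, with the next highest sum, had 14.4 normalized counts of hpxb, and the part of muscle RNA in the hpxb values was not tested. The kidney tubule sum lay between 267214 and 501176 in mutants and between 190516 and 576633 in controls. The neutrophil sum lay between 203316 and 369254 in mutants and between 196769 and 300278 in controls, and that of lymphocyte markers between 4402 and 9336 in mutants and between 6458 and 8515 in controls. The pancreas enzyme sum was 63364 in il7 mutant 2 and between 12199 and 13345 in the other mutants, against 103257 in control 3 and between 10266 and 16964 in the other controls.

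The macrophage gene timd4, a receptor for dying cells in mammals, was chosen after its values were seen. It had 29.5, 26.8 and 29.0 normalized counts in mutants, against 13.4, 8.08 and 15.5 in controls, and was the only 1 of 26 fitted macrophage markers above all controls in every mutant, where 3.51% of all fitted genes were. Another 2 of the 26, IRF8 and grna, stood below all controls in every mutant, where 4.44% of all fitted genes did. In limma timd4 had a log2 change of 1.18 (SE 0.50; adjusted p = 1.00). The erythroid gene nt5c2l1, also chosen after its values were seen, had 41325, 23315 and 59757 normalized counts in mutants, against 2525, 13423 and 17755 in controls. It was the only 1 of 18 fitted erythroid markers above all controls in every mutant, where 3.51% of all fitted genes were. In limma nt5c2l1 had a log2 change of 2.19 (SE 0.78; adjusted p = 1.00).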
